A study of Mus musculus with 2 samples.

Results

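The genes described here encode the subunits of 4 of the enzyme complexes of oxidative phosphorylation in nuclei of mouse hippocampus. They were taken by symbol from the gene tables of the 2 libraries: names beginning with Nduf and a subunit letter and number (complex I), Uqcr (complex III), Cox4 to Cox8 (complex IV) and Atp5 (complex V), without pseudogenes, opposite-strand transcripts and unnamed gene models. Of 87 matching entries, 79 with at least 50 UMIs (unique molecular identifiers, 1 per captured RNA molecule) over both libraries were kept, out of 55357 genes measured. They comprise 38 of 42 entries for complex I, 8 of 8 for complex III, 15 of 19 for complex IV and 18 of 18 for complex V, and they carried 375535 UMIs. The kept entries hold 78 symbols, because Atp5o stands on 2 gene identifiers (ENSMUSG00000022956 and ENSMUSG00000116933). The members nearest to the minimum were Cox7a1 with 58 UMIs and Ndufa4l2 with 65. Just outside it were Cox4i2 with 48 UMIs, Ndufb4c with 23 and Cox8b with 19, and the other entries left out (Ndufs6b, Cox6c2, Ndufb11b, Ndufa11b and Cox8c) had from 0 to 2.

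Both libraries were made from hippocampal tissue of mice that, by their titles, carry a floxed Bcas2 gene (Bcas2F/F), which encodes a component of the Prp19 splicing complex. The Syn-Cre-labelled library came from mice given an AAV2/9 vector in which the synapsin promoter, active in neurons, drives Cre, and its genotype label reads Bcas2 knockdown. The control library came from mice given the vehicle virus, and its genotype label reads WT although its title names floxed mice. The sources used here give neither the age of the mice, nor how many were pooled per library, nor which exons of Bcas2 are floxed. Since each group is 1 library, variation between animals cannot be estimated and nothing was tested; every interval below covers counting error at 95% only.

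Oxidative phosphorylation is carried out in the inner mitochondrial membrane. Complex I takes electrons from NADH, complex III passes them from ubiquinol to cytochrome c, complex IV hands them to oxygen, and the proton gradient built on the way drives complex V, the ATP synthase. Most subunits are encoded in the nucleus, translated in the cytosol and imported, while a core set is encoded in mitochondrial DNA. Neurons depend heavily on this pathway, and several subunits exist as paralogs with tissue preferences. Single-nucleus libraries catch nuclear RNA, much of it unspliced, and not the cytosolic pool from which these proteins are made.

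The RefSeq promoter table (GRCm38.p6) held an entry for 65 of the 78 symbols, each with 250 bases before and 50 bases after the gene start. A set of 7 motifs was searched in these windows on both strands. The NRF1 motif (GCATGCGC) stood in 9 of the 65 member promoters (13.8%) and in 2.80% of all 27025 promoters of the table. The ETS motif of GABPA (CCGGAAG) stood in 14 members (21.5%), against 9.12% of all promoters, and the YY1 motif (ATGGCGG) in 9 members (13.8%), against 4.19%. CREB (TGACGTCA) was found in 4 members (6.15%; all promoters 1.88%), the estrogen-related receptor motif (TCAAGGTCA) in 1 (1.54%; all promoters 0.407%). SP1 (GGGCGG) stood in 26 members, which is 40%, against 35.9% of all promoters. The TATA box, searched as TATAAA, stood in 7 members, which is 10.8%, against 14.2% of all promoters. NRF1, GABPA, YY1 and the estrogen-related receptors are transcription factors known for regulating respiratory chain genes. A match is a run of letters and not evidence of binding.

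The 150 bases before the start are shown for 7 members, with matches to any of the 7 motifs in capitals and all other bases in lower case, 5′ to 3′ on the strand of the gene. The first 3 are the paralogs of the c subunit of ATP synthase, whose makeup differed between the libraries. Ndufs4 and Ndufa4 lay at the low and the high end of the differences among complex I members. Cox6a1 and Ndufa6 had the most UMIs of the members with an NRF1 match before the start. That of Cox6a1 lies upstream of the bases printed. The searched windows also held YY1 for Ndufs4 and SP1 for Atp5g2 and Ndufa6, all outside the bases printed.
Atp5g1 (chr11:96075632-96075781, minus strand): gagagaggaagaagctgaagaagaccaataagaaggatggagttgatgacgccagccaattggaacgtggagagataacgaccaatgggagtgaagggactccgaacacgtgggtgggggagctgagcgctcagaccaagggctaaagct
Atp5g2 (chr15:102671048-102671197, minus strand): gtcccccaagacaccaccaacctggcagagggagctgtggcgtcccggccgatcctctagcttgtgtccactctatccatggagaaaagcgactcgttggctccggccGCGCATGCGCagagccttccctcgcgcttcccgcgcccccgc
Atp5g3 (chr2:73911327-73911476, minus strand): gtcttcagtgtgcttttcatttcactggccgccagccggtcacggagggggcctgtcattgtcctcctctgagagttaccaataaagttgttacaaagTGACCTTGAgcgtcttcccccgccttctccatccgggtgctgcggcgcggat
Ndufs4 (chr13:114388095-114388244, minus strand): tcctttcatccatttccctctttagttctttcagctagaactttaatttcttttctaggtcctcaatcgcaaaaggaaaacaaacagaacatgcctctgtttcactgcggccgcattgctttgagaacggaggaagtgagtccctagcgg
Ndufa4 (chr6:11907451-11907600, minus strand): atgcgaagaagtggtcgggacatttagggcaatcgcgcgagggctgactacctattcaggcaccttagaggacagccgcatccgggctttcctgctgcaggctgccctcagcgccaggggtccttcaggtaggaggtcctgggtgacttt
Cox6a1 (chr5:115348959-115349108, minus strand): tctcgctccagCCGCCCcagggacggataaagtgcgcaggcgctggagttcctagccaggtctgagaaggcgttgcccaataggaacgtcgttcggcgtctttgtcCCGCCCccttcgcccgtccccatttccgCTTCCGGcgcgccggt
Ndufa6 (chr15:82354292-82354441, minus strand): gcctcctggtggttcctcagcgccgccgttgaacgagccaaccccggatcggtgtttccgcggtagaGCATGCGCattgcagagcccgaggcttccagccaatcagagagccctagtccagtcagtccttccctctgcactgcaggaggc

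The 3 c-subunit promoters carried different motifs in this window. Atp5g2 held overlapping NRF1 matches on the opposite strands, beginning 42 and 40 bases before the start. Atp5g3 held the estrogen-related receptor motif, on the minus strand of the gene, beginning 52 bases before the start, and it was the only member promoter with that motif. No match stood in the window of Atp5g1. Cox6a1 held an ETS match beginning 16 bases before the start and SP1 matches beginning 139 and 44 bases before it, and Ndufa6 held NRF1 beginning 83 bases before it.

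After filters and removal of marked doublets, 11630 nuclei of the Syn-Cre-labelled library (median 5774.5 UMIs) and 11165 nuclei of the control (median 2482 UMIs) remained, and 56 barcodes occurred in both libraries before filtering. The filters took 19.6% of the barcodes of the Syn-Cre-labelled library and 0.737% of the control. Clusters that could not be named from markers held 25.5% of the nuclei of the Syn-Cre-labelled library and 1.23% of the control. There were 6 classes with at least 100 nuclei in each library: dentate gyrus (DG) granule-like (1996 in the Syn-Cre-labelled library and 546 in the control), GABAergic-like (1851 and 102), astrocyte-like (536 and 665), microglia-like (250 and 1096), oligodendrocyte precursor (OPC)-like (328 and 670) and oligodendrocyte-like (2052 and 7042). Levels are given in CPM, the UMIs of a gene scaled to all UMIs of the class, with the Syn-Cre-labelled library first and the control next in each pair of levels unless said otherwise. Values in parentheses after a pair are the log2 ratio of the Syn-Cre-labelled library over the control and its interval. For Bcas2, DG granule-like nuclei had 34.1 CPM in the Syn-Cre-labelled library and 34.3 CPM in the control (log2 ratio -0.01, 95% interval -0.28 to 0.27). GABAergic-like nuclei had 45.3 and 44.8 CPM, and oligodendrocyte-like nuclei 50.5 and 31.9 CPM. Since the deleted part is not given, the 3′ UMIs of Bcas2 do not check the labels.

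The subunit genes were measured at a median of 17 UMIs per nucleus in the Syn-Cre-labelled library and 6 in the control. Together they made up 0.295% and 0.241% of all UMIs. Within the classes with at least 100 nuclei in each library the depth differed less and in the other direction. In DG granule-like nuclei the medians were 19 member UMIs of 6267.5 UMIs in the Syn-Cre-labelled library and 17 of 7201.5 in the control. In oligodendrocyte-like nuclei they were 8 of 1969 and 5 of 2315.

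In both libraries the summed level of the 79 genes was higher in astrocyte-like nuclei than in the neuronal classes. In the control library, of 13 classes with at least 50 nuclei, fibroblast-like nuclei came first with 3912 CPM (interval 3772 to 4055), followed by astrocyte-like nuclei with 3136 CPM (3064 to 3208) and endothelial-like nuclei with 2968 CPM (2740.48 to 3209). The intervals of the latter pair overlapped. Microglia-like nuclei followed with 2557 CPM (2492 to 2624), and from there down each class overlapped its neighbour: Cajal-Retzius-like 2429.96, GABAergic-like 2428, perivascular macrophage-like 2389, neuroblast-like 2373, DG granule-like 2341, oligodendrocyte-like 2280.18, striatal medium spiny-like 2256, OPC-like 2079.85 and newly formed oligodendrocyte-like 2040.53 CPM. Apart from fibroblast-like, astrocyte-like and endothelial-like nuclei, the classes of the control could not be put in an order beyond the counting error between neighbours.

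In the Syn-Cre-labelled library, of 11 classes, astrocyte-like nuclei had 4350.35 CPM (4246 to 4457), fibroblast-like 4266 CPM (3959 to 4589.86) and microglia-like 4155 CPM (3969.88 to 4346), each overlapping the next, and oligodendrocyte-like nuclei had 3937 CPM (3878 to 3997). Cajal-Retzius-like nuclei followed with 3436 CPM and OPC-like with 3175 CPM. The other neuronal classes followed, with 3008 CPM in DG granule-like, 2960.21 in GABAergic-like, 2708 in striatal medium spiny-like, 2569.75 in subiculum or cortex excitatory-like and 2544 CPM in CA3 pyramidal-like nuclei. The intervals of DG granule-like and GABAergic-like nuclei overlapped, as did those of the last pair, while OPC-like nuclei lay apart from DG granule-like nuclei.

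**Figure D1:**
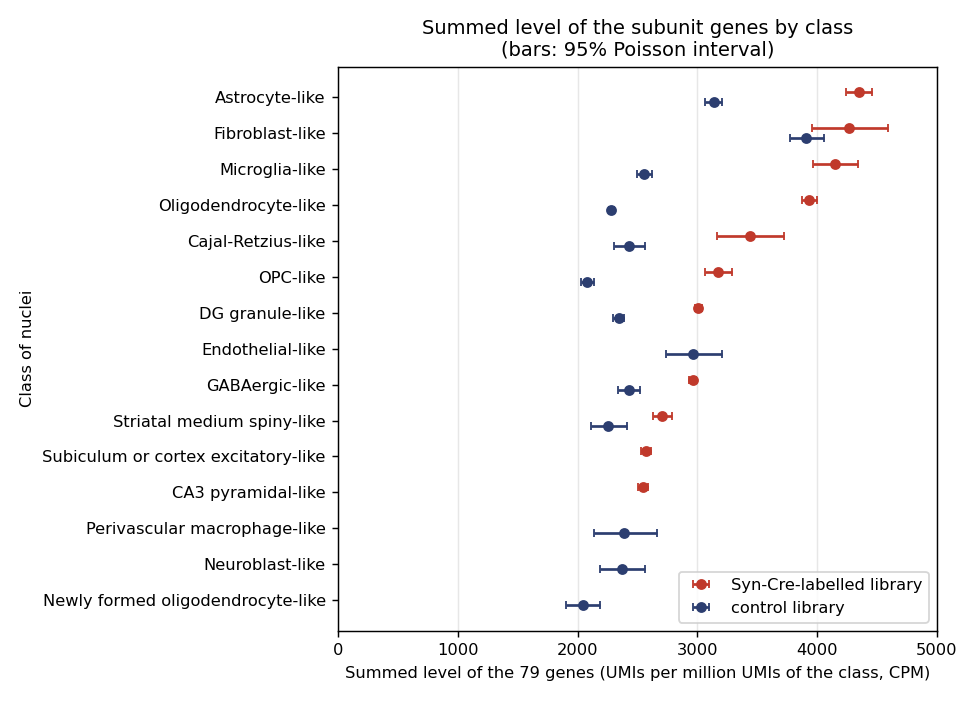
Summed level of the 79 subunit genes (x axis, CPM) in each class of nuclei with at least 50 nuclei (y axis), for the Syn-Cre-labelled library (red) and the control (blue), with exact 95% Poisson intervals. In each class shown for both libraries the red point lies to the right of the blue point, with overlapping intervals in fibroblast-like nuclei.

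The division of these UMIs among the complexes varied little. Complex I held 37.4% of the member UMIs in astrocyte-like nuclei of the Syn-Cre-labelled library and 37.9% in the control, and 38.2% and 40.9% in DG granule-like nuclei. Complex III held from 8.16% (microglia-like) to 9.92% (OPC-like) over the 6 classes compared below in the Syn-Cre-labelled library, and from 8.25% (DG granule-like) to 9.49% (GABAergic-like) in the control. Complex IV took 22.8% in DG granule-like nuclei of the Syn-Cre-labelled library and 21.2% in the control, and in microglia-like nuclei 27.7% and 24.4%. The share of complex IV was the higher one in the Syn-Cre-labelled library in each of the 6 classes, and that of complex I the lower one. In astrocyte-like nuclei these differences were small, 23.9% against 23.1% for complex IV.

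Some members differed strongly between the compared classes and were highest in astrocyte-like nuclei in both libraries. Cox6b2, a paralog of Cox6b1 known mainly from testis, stood at 25.9 CPM in astrocyte-like nuclei of the Syn-Cre-labelled library (39 UMIs) and at 23.5 CPM in the control (55 UMIs). In DG granule-like nuclei, the lowest of the compared classes, it stood at 0.613 CPM (8 UMIs) and 1.20 CPM (5 UMIs), so that the astrocyte-like level was 42.3 and 19.6 times higher. Cox6b2 made up 31.7% of the Cox6b UMIs of astrocyte-like nuclei in the Syn-Cre-labelled library (Clopper-Pearson interval 23.6% to 40.7%) and 38.2% in the control (30.2% to 46.7%). In DG granule-like nuclei it made up 1.68% (0.730% to 3.29%) and 4.03% (1.32% to 9.16%). OPC-like and oligodendrocyte-like nuclei of the control, with levels of 11.3 and 14.1 CPM, had shares of 37.3% (27.0% to 48.7%) and 31.2% (28.0% to 34.6%). The intervals of both shares overlapped the astrocyte-like one of the control. In the Syn-Cre-labelled library the shares of these classes were lower, 14.3% (5.43% to 28.5%) and 14.3% (10.4% to 18.9%).

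Ndufc2, a subunit of the membrane arm of complex I, stood at 87.7 CPM in astrocyte-like and 27.3 CPM in the DG granule-like nuclei of the Syn-Cre-labelled library, and at 45.6 and 14.9 CPM in the control. The entry of Atp5o with identifier ENSMUSG00000116933 stood at 136 and 139 CPM in astrocyte-like nuclei of the Syn-Cre-labelled library and the control, and at 8.75 and 14.9 CPM in microglia-like nuclei. It spans 242.6 kb in the GENCODE annotation (M21, GRCm38), overlaps the genes Donson, Cryzl1 and Atp5o on its own strand and Itsn1 on the opposite one, and the strand setting of the counting is not given, so its UMIs cannot be assigned to the oligomycin sensitivity subunit alone. The Atp5o entry ENSMUSG00000022956 also overlaps it. Over all members, 28 of 79 overlap another protein-coding gene.

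Of the 79 members, 34 had their highest level among the 6 compared classes in the same class in both libraries. In the control, 45 members were highest in astrocyte-like nuclei, 13 in microglia-like, 11 in GABAergic-like, 4 in oligodendrocyte-like and 6 in DG granule-like nuclei. In the Syn-Cre-labelled library, 31 were highest in microglia-like, 29 in astrocyte-like and 14 in oligodendrocyte-like nuclei, 3 in OPC-like and 2 in GABAergic-like nuclei, and no member was highest in DG granule-like nuclei. The intervals of the highest and the lowest class were apart for 50 members in the Syn-Cre-labelled library and 48 in the control. These counts include members with few UMIs, such as Ndufa4l2 with 8 and 3 over the compared classes, and are not given for all genes. The heart and muscle paralog Cox6a2 was a small part of the Cox6a UMIs, with a larger share in GABAergic-like than in DG granule-like nuclei of the Syn-Cre-labelled library: 2.61% (1.77% to 3.70%) in the Syn-Cre-labelled library and 4.92% (1.03% to 13.7%) in the control, from 30 and 3 UMIs, against 0.492% and 0.465% in DG granule-like nuclei.

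Between the libraries, the summed level of the subunit genes was higher in the Syn-Cre-labelled library in all 6 compared classes, with larger ratios in oligodendrocyte-like, microglia-like and OPC-like nuclei and smaller ones in the neuronal classes. In DG granule-like nuclei the members summed to 3008 CPM in the Syn-Cre-labelled library and 2341 CPM in the control (log2 ratio 0.36, 0.33 to 0.39). The GABAergic-like sums of 2960.21 and 2428 CPM gave 0.29 (0.23 to 0.34). The astrocyte-like sums of 4350.35 and 3136 CPM gave 0.47 (0.42 to 0.52), and the OPC-like sums of 3175 and 2079.85 CPM gave 0.61 (0.55 to 0.67). The microglia-like sums of 4155 and 2557 CPM gave 0.70 (0.62 to 0.78), and the oligodendrocyte-like sums of 3937 and 2280.18 CPM gave 0.79 (0.76 to 0.81). The order of these ratios between classes was not tested. With every nucleus thinned to 1000 UMIs, the GABAergic-like ratio was 0.16 and the median over its members 0.07. Within 1 cluster of the class, the oligodendrocyte-like ratio was 0.48. With marked doublets kept, the microglia-like ratio was 0.39.

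Single members were called higher or lower at 1.5-fold among those with at least 50 UMIs in the class. Among the DG granule-like nuclei 18 of 75 members were higher and 0 lower, while 9.12% of all genes with that minimum were higher and 5.76% lower. In GABAergic-like nuclei 12 of 75 were higher and 1 lower, against 14% and 11.4% of all genes, so the count of higher members there was near the background. That count depended on the setting: it was 21 with the mean CPM over nuclei, 22 of 75 (with 16 lower) after thinning to 1000 UMIs, and 30 of 73 in nuclei with Y-linked UMIs. The last of these settings had 32 control nuclei. In astrocyte-like nuclei 33 of 72 were higher and 0 lower, against 14% and 6.35%. Microglia-like nuclei had 37 of 59 higher and 1 lower, against 16.1% and 12.1%. With doublets kept the microglia-like count was 21 of 72 and the median log2 ratio 0.38, and within 1 cluster, where fewer members had the minimum, it was 8 of 23 and 0.37. OPC-like nuclei had 36 of 65 higher and 1 lower, against 11.5% and 6.84%. Oligodendrocyte-like nuclei had 55 of 75 higher and 1 lower, against 24.7% and 7.29%. For the counts under other settings, the shares of all genes are not given here.

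The medians over members followed the sums. The median log2 ratio was 0.35 in DG granule-like nuclei, 0.31 in GABAergic-like, 0.52 in astrocyte-like, 0.79 in microglia-like, 0.63 in OPC-like and 0.82 in oligodendrocyte-like nuclei. The medians of all genes with the same minimum were 0.05, 0.03, 0.04, -0.01, 0.02 and 0.15 in the same order of classes. The counting interval of a single member lay above 0 for 43 of 75 members in DG granule-like nuclei, 14 of 75 in GABAergic-like, 40 of 72 in astrocyte-like, 32 of 59 in microglia-like, 37 of 65 in OPC-like and 68 of 75 in oligodendrocyte-like nuclei. It lay below 0 for 1 member each in astrocyte-like, microglia-like and oligodendrocyte-like nuclei and for 0 in the other classes. These interval counts are not given for all genes, so they do not show whether the members differ from other genes.

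**Figure D2:**
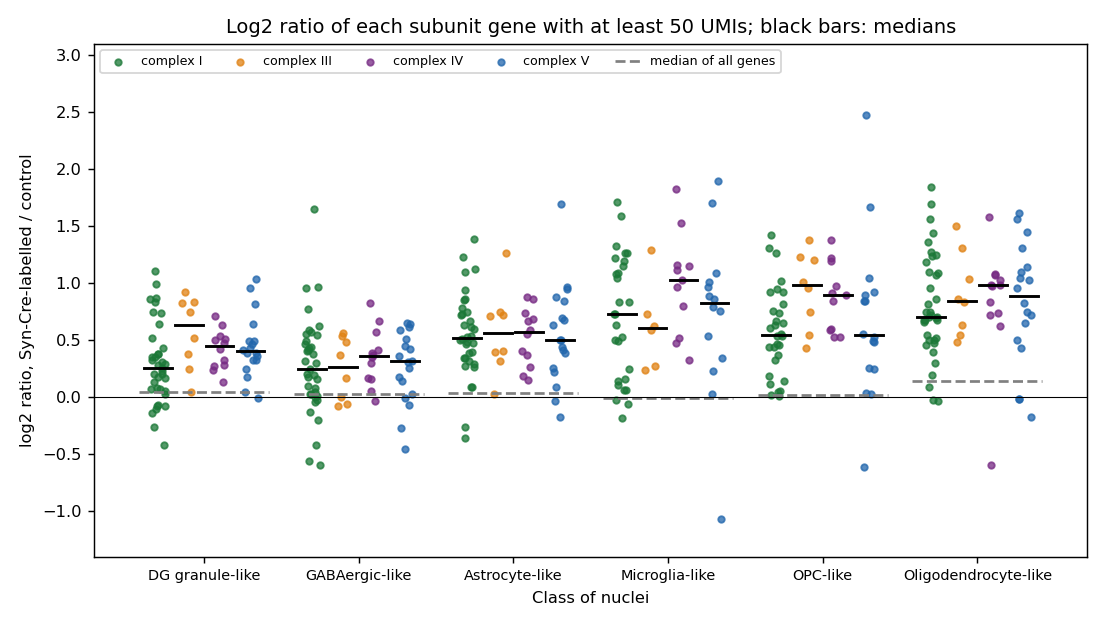
Log2 ratio of the level in the Syn-Cre-labelled library over the control (y axis) of each subunit gene with at least 50 UMIs in the class, in the 6 compared classes (x axis), coloured by complex, with black bars at the median of each complex and a dashed line at the median of all genes. The median of each complex lies above the dashed line in each class, from 0.25 for complex I in GABAergic-like nuclei to 1.03 for complex IV in microglia-like nuclei.

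Other values moved with this difference. The share of UMIs from mitochondrial genes was 0.134% in DG granule-like nuclei of the Syn-Cre-labelled library and 0.0376% in the control, and in oligodendrocyte-like nuclei 0.115% and 0.0628%. Markers of the other compared classes were found inside each class in both libraries. Inside DG granule-like nuclei the 45 markers of other classes summed to 1371 CPM in the Syn-Cre-labelled library and 3069.94 CPM in the control, with 0 of 45 undetected in either. In oligodendrocyte-like nuclei the 54 markers of other classes summed to 1678 and 1940.32 CPM, with 0 undetected. Over the 6 classes these sums ranged from 1274 to 6234 CPM in the Syn-Cre-labelled library and from 1940.32 to 8439 CPM in the control, and at most 3 markers of a list were at 0 (Dsp, Tdo2 and Siglech in OPC-like nuclei of the Syn-Cre-labelled library, and Dsp, Lhx6 and Sst in astrocyte-like nuclei of the control). The neuronal genes Syt1 and Snap25, which encode proteins of synaptic vesicle release, were at 586 and 394 CPM in oligodendrocyte-like nuclei of the Syn-Cre-labelled library, against 54.8 and 36.3 CPM in the control nuclei. Their part in the difference between the libraries was not tested.

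The microglia-like and oligodendrocyte-like nuclei of the libraries fell mostly into different clusters. Of the oligodendrocyte-like nuclei, 81.1% in the Syn-Cre-labelled library belonged to cluster 4, while 46.1% in the control belonged to cluster 0. Within the 4 oligodendrocyte-like clusters compared, the log2 ratio of the summed level was 0.65 (0.55 to 0.74), 0.88 (0.79 to 0.98), 0.48 (0.41 to 0.55) and 0.53 (0.36 to 0.71) in clusters 0, 2, 3 and 4. Cluster 13 held 86.8% of the microglia-like nuclei of the Syn-Cre-labelled library and cluster 9 held 69.8% of those of the control, and the ratios within them were 0.58 (0.48 to 0.67) and 0.68 (0.50 to 0.86). Both libraries held nuclei with Y-linked UMIs and nuclei with Xist UMIs. In DG granule-like nuclei the summed level was 3029 CPM in nuclei with Y-linked UMIs and 2902 CPM in nuclei with Xist UMIs of the Syn-Cre-labelled library, and 2353 and 2347 CPM in the control. In oligodendrocyte-like nuclei it was 3908 and 3817 CPM, and 2372 and 2201 CPM. The higher library was the same in each kind of nucleus in all 6 classes.

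Complex I had the lowest median log2 ratio of the complexes in DG granule-like, GABAergic-like and oligodendrocyte-like nuclei (0.26, 0.25 and 0.71). Only 8 members of all complexes had at least 200 UMIs in microglia-like nuclei, and the median of all genes with that minimum was -0.13. Among those of complex I, the microglia-like median of 0.73, over 28 members, became -0.06. Its accessory subunit Ndufa4, which sits in complex IV in structural work despite its name, was among the 3 highest members of 5 classes. Ndufa4 reached 56.5 CPM in the DG granule-like nuclei of the Syn-Cre-labelled library and 26.1 CPM in the control (log2 ratio 1.11, 0.82 to 1.42). The oligodendrocyte-like levels were 90.1 and 27.9 CPM (1.69, 1.5 to 1.89), and it stood in microglia-like nuclei at 109 and 33.4 CPM (1.72, 1.17 to 2.25), in astrocyte-like at 86.4 and 32.8 CPM (1.39, 0.98 to 1.82) and in OPC-like at 74.6 and 27.8 CPM (1.42, 0.94 to 1.90). The control levels of Ndufa4 thus lay within a narrow range over the classes and those of the Syn-Cre-labelled library did not. GABAergic-like nuclei were the exception, with 47.5 and 35.4 CPM and an interval that held 0 (0.41, -0.05 to 0.93). Its paralog Ndufa4l2 had from 0 to 3 UMIs in each of the 6 compared classes of either library, and 22 and 24 UMIs over all nuclei.

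Ndufs4, a subunit of the electron-input arm whose loss causes a Leigh-like disease in mice, had the most UMIs of complex I and showed no difference beyond counting error. It stood, in DG granule-like nuclei, at 133 and 130 CPM (0.03, -0.11 to 0.17), at 142 and 139 CPM in GABAergic-like (0.03, -0.21 to 0.28), at 111 and 133 CPM in astrocyte-like (-0.26, -0.55 to 0.01) and at 70.4 and 71.7 CPM in oligodendrocyte-like nuclei (-0.02, -0.21 to 0.16). Ndufs1, the large iron-sulfur subunit of the same arm, stood, in DG granule-like nuclei, at 67.6 and 71.2 CPM (-0.07, -0.26 to 0.12) and at 82.4 and 106 CPM in astrocyte-like nuclei, where it was the member with the interval below 0 (-0.36, -0.68 to -0.04). Ndufa10, an accessory subunit of the membrane arm, lay between, with 89.3 and 71.2 CPM in DG granule-like (0.33, 0.14 to 0.52) and 68.8 and 47.1 CPM in oligodendrocyte-like nuclei (0.55, 0.35 to 0.74).

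Further complex I members were extreme in single classes. Ndufa1 was the highest member in oligodendrocyte-like nuclei, at 24.8 and 6.90 CPM (1.85, 1.46 to 2.23), and Ndufs6 the highest in GABAergic-like nuclei, at 10.2 and 2.80 CPM (1.65, 0.30 to 4.16), where the control value rests on 3 UMIs. Ndufb11 reached 26.4 and 13.2 CPM in DG granule-like nuclei (0.99, 0.59 to 1.44). In GABAergic-like nuclei Ndufa8 stood at 15.5 and 7.46 CPM (0.97, 0.05 to 2.28) and Ndufs5 at 28.0 and 13.99 CPM (0.96, 0.26 to 1.85), the members next to Ndufs6. At the low end, Ndufs8 stood, in DG granule-like nuclei, at 5.44 and 7.19 CPM (-0.42, -1.04 to 0.26), Ndufb4 at 14.2 and 17.0 CPM (-0.26, -0.66 to 0.16) and Ndufa3 at 15.6 and 17.0 CPM (-0.14, -0.53 to 0.28), all with intervals that held 0. In GABAergic-like nuclei Ndufa2 stood at 16.9 and 25.2 CPM (-0.60, -1.15 to 0.05), and in microglia-like nuclei Ndufa9 stood at 26.3 and 30.8 CPM (-0.18, -1.248 to 0.67).

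In complex III the core proteins had smaller ratios than the small subunits named here in oligodendrocyte-like nuclei. Uqcrc1, a core protein, stood, in DG granule-like nuclei, at 43.3 and 41.9 CPM (0.04, -0.20 to 0.30) and at 49.3 and 33.9 CPM in oligodendrocyte-like nuclei (0.54, 0.31 to 0.77). Uqcrc2, the other core protein, stood at 65.1 and 49.8 CPM (0.38, 0.17 to 0.61) and at 66.5 and 47.6 CPM (0.48, 0.28 to 0.68). The small subunit Uqcr11 stood, in DG granule-like nuclei, at 18.5 and 10.3 CPM (0.83, 0.37 to 1.35), at 31.9 and 13.2 CPM in astrocyte-like nuclei (1.26, 0.59 to 1.97) and at 39.8 and 16.1 CPM in oligodendrocyte-like nuclei (1.31, 1.03 to 1.59). The hinge protein Uqcrh stood, in DG granule-like nuclei, at 41.0 and 34.5 CPM (0.24, -0.02 to 0.52) and at 64.9 and 31.6 CPM in oligodendrocyte-like nuclei (1.04, 0.83 to 1.247). Uqcrq, a ubiquinone-binding subunit, stood at 34.2 and 23.7 CPM (0.52, 0.21 to 0.86) and at 43.5 and 24.5 CPM (0.83, 0.58 to 1.08). Complex III as a whole was the one complex whose summed ratio held 0 in a class, with 257 and 230 CPM in GABAergic-like nuclei (0.16, -0.03 to 0.35).

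Complex IV had the highest median of the complexes in GABAergic-like (0.36), astrocyte-like (0.57), microglia-like (1.03) and oligodendrocyte-like nuclei (0.98). Cox7c, its member with the most UMIs, stood, in DG granule-like nuclei, at 109 and 78.8 CPM (0.47, 0.30 to 0.65) and at 137 and 83.3 CPM in oligodendrocyte-like nuclei (0.72, 0.58 to 0.86). Cox4i1, the first regulatory subunit, stood at 89.5 and 57.7 CPM (0.63, 0.43 to 0.84) and at 136 and 81.3 CPM (0.74, 0.60 to 0.88). Cox7b stood at 78.9 and 58.9 CPM (0.42, 0.22 to 0.63) and at 110 and 55.5 CPM (0.99, 0.83 to 1.15), and Cox8a at 81.7 and 57.3 CPM (0.51, 0.31 to 0.72) and at 139 and 65.6 CPM (1.08, 0.93 to 1.22). Cox8a did not differ beyond counting error in GABAergic-like nuclei, at 78.9 and 80.2 CPM (-0.03, -0.34 to 0.31).

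Cox5a and Cox5b form the matrix side of complex IV. Cox5a was higher by at least 1.5-fold in all 6 classes, from 60.5 and 36.9 CPM in DG granule-like nuclei (0.71, 0.46 to 0.97) to 70.2 and 23.5 CPM in oligodendrocyte-like nuclei (1.58, 1.36 to 1.80); it is named here after its values were seen. Cox5b reached 91.9 and 25.9 CPM in microglia-like nuclei (1.83, 1.22 to 2.42). The 1 member of complex IV called lower was Cox6b2 in oligodendrocyte-like nuclei, at 9.27 and 14.1 CPM (-0.60, -1.13 to -0.12), while its paralog Cox6b1 stood at 55.6 and 31.1 CPM there (0.84).

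The remaining paralog groups of complex IV were dominated by 1 gene. Cox4i2, which is known from lung, held 0.263% of the Cox4 UMIs over all nuclei of the Syn-Cre-labelled library and 0.690% in the control. Cox8b and Cox8c had 5 and 0 UMIs in the Syn-Cre-labelled library and 6 and 0 in the control, with Cox8a taking 99.9% and 99.8%. Among the Cox7a genes, Cox7a2 held 70.3% and 69.3% over all nuclei, Cox7a2l 29.2% and 29.5%, and the muscle form Cox7a1 0.462% and 1.20%. Cox7a2l took a larger part in microglia-like nuclei of both libraries, 40.7% (28.1% to 54.3%) and 40.3% (31.9% to 49.1%), than in OPC-like nuclei, 22.5% (14.9% to 31.9%) and 20% (13.6% to 27.7%). These intervals were apart in the control and overlapped in the Syn-Cre-labelled library.

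Complex V held paralogs with unlike differences. Atp5g1, Atp5g2 and Atp5g3 encode the same mature c subunit, the ring through which protons pass, behind different import sequences. Atp5g3 was higher in the Syn-Cre-labelled library in all 6 classes: 36.1 against 18.4 CPM in DG granule-like nuclei (0.96, 0.62 to 1.33), 35.6 against 22.4 CPM in GABAergic-like (0.64, 0.08 to 1.32), 44.5 against 13.6 CPM in astrocyte-like (1.69, 1.08 to 2.36), 56.9 against 15.4 CPM in microglia-like (1.89, 1.10 to 2.66), 43.2 against 13.5 CPM in OPC-like (1.67, 1.01 to 2.34) and 44.5 against 14.5 CPM in oligodendrocyte-like nuclei (1.61, 1.34 to 1.89). The intervals of its levels in the libraries were apart in all classes but the GABAergic-like one.

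Atp5g2 did not follow. It stood at 20.1 CPM in both libraries in DG granule-like nuclei (-0.01, -0.36 to 0.37), at 26.6 and 27.1 CPM in oligodendrocyte-like nuclei (-0.02, -0.33 to 0.27) and at 30.6 and 25.6 CPM in astrocyte-like nuclei (0.26, -0.33 to 0.84). In microglia-like nuclei it stood at 19.7 and 43.5 CPM (-1.07, -2.31 to -0.16; 9 and 99 UMIs), the member with the interval below 0 in that class, and in OPC-like nuclei at 15.7 and 24.5 CPM (-0.61, -1.53 to 0.16). Atp5g1 was higher in oligodendrocyte-like nuclei, at 40.3 and 13.6 CPM (1.56, 1.27 to 1.85), and in DG granule-like nuclei, at 25.2 and 16.1 CPM (0.64, 0.27 to 1.05), but not beyond counting error in GABAergic-like nuclei, at 25.2 and 29.8 CPM (-0.27, -0.77 to 0.32).

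The makeup of the c-subunit UMIs therefore differed between the libraries. In oligodendrocyte-like nuclei Atp5g2 held 23.9% (20.2% to 28.0%) in the Syn-Cre-labelled library and 49.0% (45.8% to 52.2%) in the control, while Atp5g3 held 39.9% and 26.3% and Atp5g1 36.2% and 24.7%. In microglia-like nuclei Atp5g2 held 18% (8.58% to 31.4%) and 60.0% (52.1% to 67.5%), and in OPC-like nuclei 19.8% (11.7% to 30.1%) and 54.0% (44.9% to 63.0%). The DG granule-like shares of Atp5g2 were 24.7% (22.1% to 27.4%) and 36.8% (30.6% to 43.5%). The intervals of the Atp5g2 share did not overlap in these 4 classes, and they overlapped in GABAergic-like (19.4% and 27.3%) and astrocyte-like nuclei (30.3% and 44.4%). These shares do not depend on the total used for scaling.

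**Figure D3:**
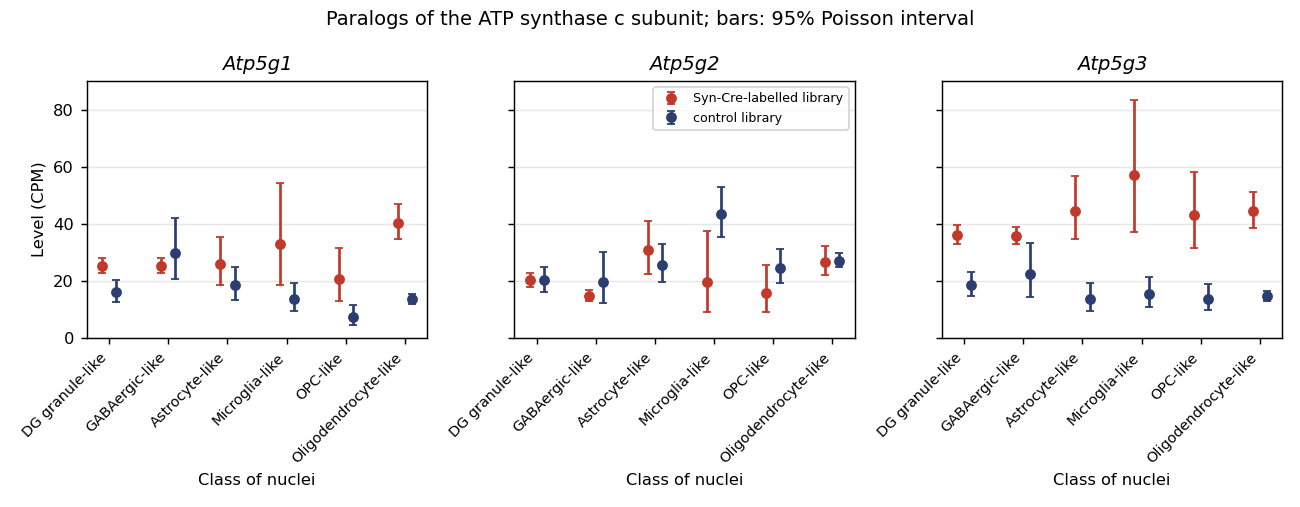
Level in CPM (y axis) of the 3 genes of the ATP synthase c subunit in the 6 compared classes (x axis), in the Syn-Cre-labelled library (red) and the control (blue), with exact 95% Poisson intervals. Atp5g3 lies higher in the Syn-Cre-labelled library in each class, while Atp5g2 lies lower in microglia-like nuclei and level in DG granule-like and oligodendrocyte-like nuclei.

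In the catalytic part of complex V the ratios varied with the subunit and the class. Atp5a1, the alpha subunit and the member with the most UMIs of all 79, stood at 144 and 103 CPM in DG granule-like (0.49, 0.34 to 0.65), 162 and 113 CPM in GABAergic-like (0.51, 0.26 to 0.80) and 155 and 110 CPM in oligodendrocyte-like nuclei (0.50, 0.37 to 0.63), and it passed 1.5-fold in no class. Atp5b, the beta subunit, stood at 116 and 82.4 CPM in DG granule-like (0.49, 0.33 to 0.67) and 140 and 65.3 CPM in oligodendrocyte-like nuclei (1.10, 0.95 to 1.24). Atp5c1, the gamma subunit of the central stalk, stood at 85.1 and 67.8 CPM (0.33, 0.14 to 0.52) and at 100 and 59.7 CPM (0.75, 0.58 to 0.91). Atp5e, the epsilon subunit of the stalk, was the second highest member in DG granule-like nuclei, at 9.58 and 4.55 CPM (1.04, 0.37 to 1.85). Atp5k, the small subunit e at the dimer interface, had the highest ratio among the members with at least 50 UMIs in any of the 6 classes, at 37.3 and 6.59 CPM in OPC-like nuclei (2.48, 1.66 to 3.40; 38 and 18 UMIs), and Atp5l, subunit g at the same interface, stood at 20.6 and 23.5 CPM in astrocyte-like nuclei (-0.18, -0.87 to 0.47).

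The inhibitor of complex V, ATP synthase inhibitory factor 1 (Atpif1 in the files), is no member by the symbol rule. It did not differ beyond counting error in DG granule-like nuclei, at 107 and 102 CPM (0.07, -0.09 to 0.23). It was higher in GABAergic-like nuclei, at 125 and 81.2 CPM (0.62, 0.31 to 0.95), and in oligodendrocyte-like nuclei, at 81.5 and 40.7 CPM (1.00, 0.81 to 1.19).

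Across classes, 59 members had at least 50 UMIs in each of the 6 compared classes. Of these, 41 had a log2 ratio above 0 in all 6, 34 were at least 1.5-fold higher in 3 or more, and Atp5g3 and Cox5a were so in all 6. The same counts across classes are not given for all genes. In single classes, from 49.7% (microglia-like) to 61.8% (oligodendrocyte-like) of all genes with the minimum had a log2 ratio above 0. At the other end, members that were at least 1.5-fold higher in no class included Ndufs1, Ndufs4, Ndufa3, Uqcrc1, Uqcrc2, Atp5a1, Atp5pb and Atp5g2, of which Atp5g2 was at least 1.5-fold lower in microglia-like and OPC-like nuclei. Among them are both core proteins of complex III and the alpha subunit of complex V. All comparisons in a class share its total, so the ratios of the members in it are not independent of each other.

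Longer genes tended to have lower ratios in all compared classes but the GABAergic-like one. The lowest ratio itself belonged to a short gene in DG granule-like (Ndufs8, 3.91 kb) and in oligodendrocyte-like nuclei (Cox6b2, 1.30 kb). All 79 members had a span in GENCODE M21, with a median of 7.19 kb and a range of 0.953 kb (Cox6a2) to 242.6 kb (the Atp5o entry ENSMUSG00000116933); Ndufs4 spans 100.5 kb, Ndufs1 33.2 kb and Ndufa10 34.9 kb, while Atp5g3 spans 2.88 kb, Ndufa4 7.21 kb and Atp5g2 9.49 kb. Spearman's rho between span and log2 ratio over members was -0.39 in DG granule-like nuclei (75 members), -0.26 in astrocyte-like (72), -0.44 in microglia-like (59), -0.46 in OPC-like (65) and -0.26 in oligodendrocyte-like nuclei (75), and 0.02 in GABAergic-like nuclei (75). Over all other genes with the same minimum it was -0.13, -0.13, -0.07, -0.20 and -0.03 in the first 5 of these classes and -0.14 in GABAergic-like nuclei. These are descriptions across genes that share a library, and a class total.

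When members and other genes were divided by span (under 5, 5 to 10, 10 to 20 and over 20 kb), the median ratio of the members was the higher one in each span of each class. In oligodendrocyte-like nuclei the 24 members under 5 kb had a median log2 ratio of 0.91 and 1880 other genes of that span 0.21, and the 9 members over 20 kb had 0.55 against 0.09 for 7566 other genes. In DG granule-like nuclei the 23 members under 5 kb had 0.51 against 0.14, and the 10 members over 20 kb had 0.22 against 0.01. The shares past 1.5-fold did not all follow: in GABAergic-like nuclei 4.35% of the 23 members under 5 kb passed 1.5-fold higher, against 21.6% of the other genes of that span, and in microglia-like nuclei 0 of the 8 members over 20 kb did, against 14.01% of other genes.

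**Figure D4:**
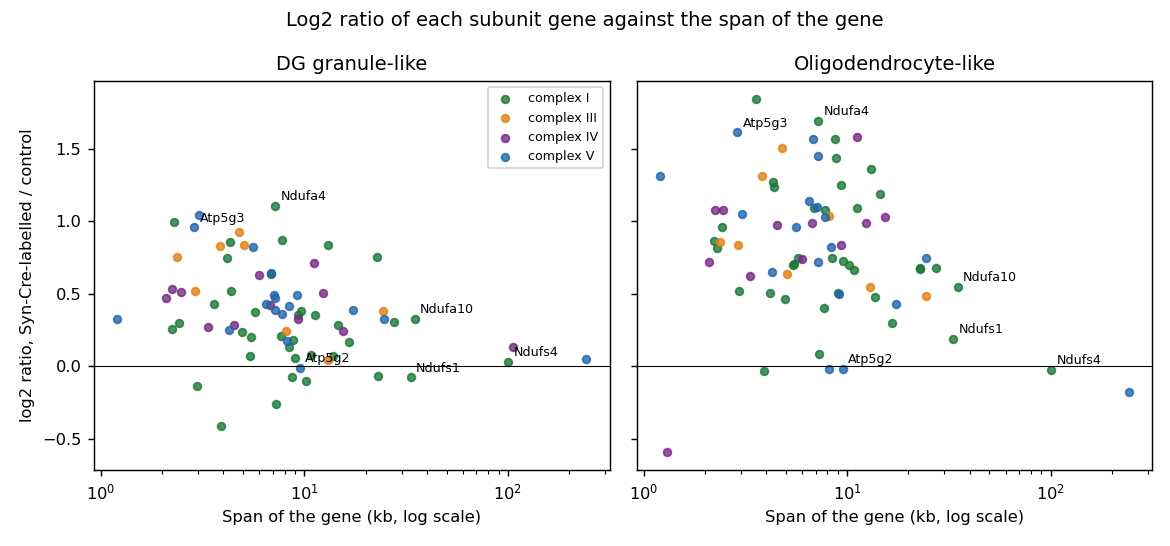
Log2 ratio of the level in the Syn-Cre-labelled library over the control (y axis) of each subunit gene with at least 50 UMIs against the span of the gene in kb (x axis, log scale), in DG granule-like (left) and oligodendrocyte-like nuclei (right), coloured by complex. Ndufs4, at 100.5 kb, lies in the lower part of each panel, and genes under 10 kb hold both the lowest and the highest ratio.

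The mitochondrially encoded subunits, which complete complexes I, III, IV and V, were also higher in the Syn-Cre-labelled library. They summed to 578 and 155 CPM in DG granule-like nuclei (log2 ratio 1.90, 1.78 to 2.01), a larger ratio than that of the nuclear-encoded members. There 6 of 6 genes with at least 50 UMIs passed 1.5-fold, against 9.12% of all genes. In the other classes the ratio was 0.78 in GABAergic-like, 0.95 in astrocyte-like, 0.76 in microglia-like, 0.77 in OPC-like and 0.65 (0.57 to 0.72) in oligodendrocyte-like nuclei, the last one below the ratio of the nuclear-encoded members there. RNA of mitochondria reaches a nuclear library from outside the nucleus.

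Apart from glycolysis, the partners of the members in the pathway showed smaller summed ratios than the members in each compared class. Complex II and cytochrome c together stood, in DG granule-like nuclei, at 159 and 150 CPM (0.09, -0.04 to 0.22) and at 224 and 189 CPM in oligodendrocyte-like nuclei (0.24, 0.14 to 0.35), with 0 and 1 of 5 genes past 1.5-fold. The 41 assembly factors, which build the complexes without staying in them, had summed ratios of 0.21 (DG granule-like) and 0.49 (oligodendrocyte-like nuclei), with 2 and 15 genes higher and 0 lower. The 16 genes of pyruvate dehydrogenase and the citric acid cycle had 0.20 and 0.36, with 3 and 4 higher. The 12 regulators of mitochondrial genes, among them Ppargc1a, Nrf1, Gabpa and Tfam, had 0.04 (-0.04 to 0.12) and 0.21 (0.13 to 0.30), with 0 and 3 higher. Of all genes with the minimum, 9.12% passed 1.5-fold higher among DG granule-like nuclei, while 24.7% did so among oligodendrocyte-like ones. Against the latter share, the oligodendrocyte-like counts for complex II with cytochrome c, the citric acid cycle list and the regulators were near the background. Glycolysis was higher by 0.27 in DG granule-like, 0.33 in GABAergic-like and astrocyte-like, 0.51 in microglia-like, 0.58 in OPC-like and 0.86 (0.81 to 0.91) in oligodendrocyte-like nuclei, where 11 of 17 genes passed 1.5-fold.

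Other broadly active gene groups were also higher in the Syn-Cre-labelled library in most classes. The cytosolic ribosome had summed ratios of 0.20 in DG granule-like, 0.01 (-0.05 to 0.06) in GABAergic-like, 0.47 (0.42 to 0.52) in astrocyte-like, 0.26 in microglia-like, 0.43 in OPC-like and 0.35 in oligodendrocyte-like nuclei, and the astrocyte-like value was as large as that of the subunit genes. The mitochondrial ribosome ranged from 0.20 to 0.34 over the 6 classes, the proteasome from 0.19 to 0.33 and mitochondrial import from 0.23 to 0.42. Import and glycolysis (both 0.33) exceeded the subunit genes (0.29) in GABAergic-like nuclei, and glycolysis did so in oligodendrocyte-like nuclei. All these lists were drawn up with earlier results of these data known.

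**Figure D5:**
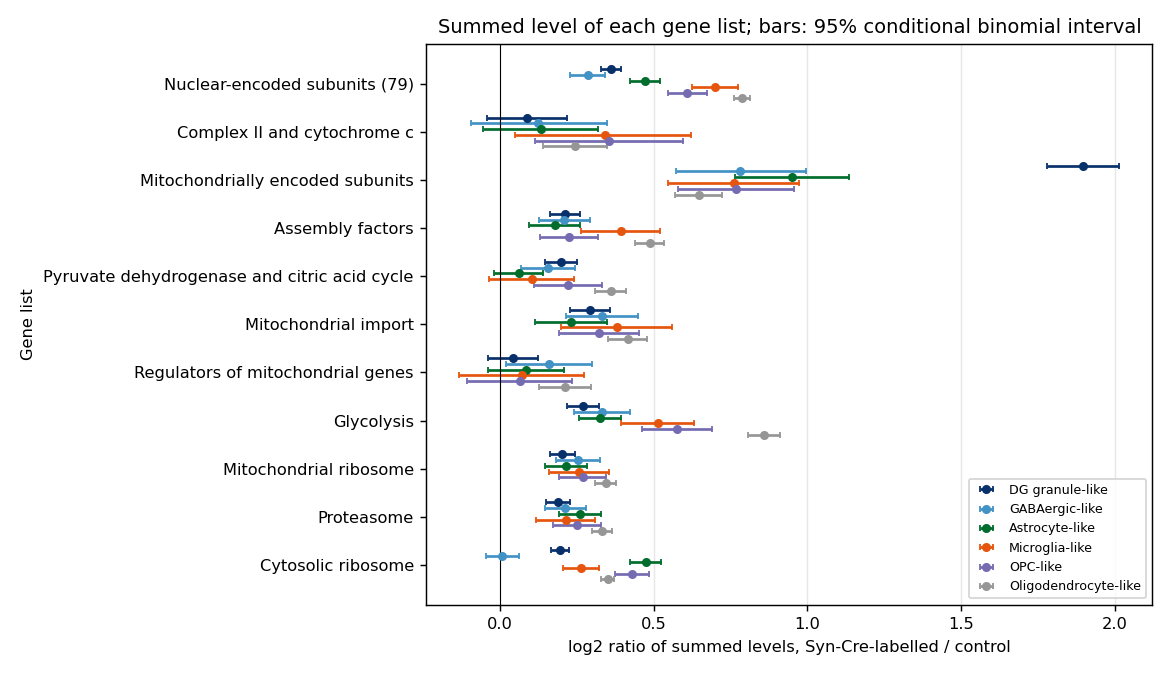
Log2 ratio of the summed level in the Syn-Cre-labelled library over the control (x axis) of the 79 subunit genes and of 10 other gene lists (y axis), in the 6 compared classes (colours), with exact 95% conditional binomial intervals. The subunit genes lie to the right of the regulators, assembly factors and citric acid cycle genes in each class, and the mitochondrially encoded subunits in DG granule-like nuclei stand apart at 1.90.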

How the data were processed

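The data are 10x 3′ single-nucleus libraries, 1 per group, deposited by the authors as raw UMI counts per gene and nucleus. Cell Ranger 9.0.1 stands in the file headers, and per the submitters' processing notes bcl2fastq 5.0.1, Seurat 4.1.0 and GRCm39 were used. The sources used here do not say whether intronic reads were counted or on which strand.

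Barcodes with at least 500 genes, 800 UMIs and at most 5% mitochondrial UMIs were kept, and doublets were marked with Scrublet at an expected 0.8% per 1000 nuclei (scanpy 1.11.5); the use of the expected rate in place of the automatic threshold, and the naming margin of 0.5, were set after the data were seen. Leiden clusters (2000 variable genes, 30 components, 15 neighbours, resolution 1) were named from marker lists. UMIs were summed per class and library and divided by all UMIs of the class (CPM). Log2 ratios of single genes, except Bcas2 and Atpif1, add 0.5 UMI to each count. Ratios of sums, those of Bcas2 and Atpif1 and all intervals of ratios use the counts with nothing added. Single genes need 50 UMIs over both libraries in the class. Levels have exact Poisson, ratios exact conditional binomial and shares Clopper-Pearson intervals at 95%, which cover counting error only. Only the ratios and their intervals were tested on simulated counts. Named are the 4 members with the most UMIs in each complex, the 3 highest and 3 lowest ratios in each class, the isoform groups and the complex V inhibitor. The members and lists were chosen with earlier results of these data known. The alternatives tried were other scalings (edgeR 4.0.16 factors), thinning, filters, doublets, free RNA, nuclei with Y-linked or Xist UMIs, clusters, gene minimum and fold.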

Additional observations from a re-analysis of the deposited data

How the results depend on the processing

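The summed level of the members was higher in the Syn-Cre-labelled library in each of the 6 compared classes under every alternative run. No paired analysis was possible because each group has 1 library. Results below are log2 ratios of sums, medians over members, and counts of members at least 1.5-fold higher. The counts are given without the share of all genes under the same setting, so they have no background beside them.

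With a lower fold threshold the counts were 43 (DG granule-like), 35 (GABAergic-like) and 54 (astrocyte-like), and with 2-fold they were 2, 1, 6, 22 (microglia-like), 14 (OPC-like) and 27 (oligodendrocyte-like). TMM scaling, which moved the median of all genes to -0.06 in astrocyte-like, -0.19 in microglia-like and -0.10 in oligodendrocyte-like nuclei, gave sums of 0.35 (GABAergic-like), 0.37 (astrocyte-like), 0.52 (microglia-like), 0.52 (OPC-like) and 0.54 (oligodendrocyte-like), medians of 0.42, 0.61 and 0.57 (astrocyte-, microglia- and oligodendrocyte-like) and 35 higher members in oligodendrocyte-like nuclei. Median-of-ratios scaling gave sums of 0.42 (astrocyte-like) and 0.61 (oligodendrocyte-like) and a median of 0.64 in the latter. The mean CPM over nuclei gave 21 higher members in GABAergic-like nuclei. Thinning to 1000 UMIs gave a sum of 0.16, a median of 0.067 and 22 higher members in GABAergic-like nuclei, where the median of complex V turned to -0.26, and a median of 0.80 in OPC-like nuclei.

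With doublets kept, the sums were 0.36 (astrocyte-like), 0.39 (microglia-like) and 0.52 (OPC-like), the medians 0.40 and 0.38 and the counts 20 and 21 (astrocyte- and microglia-like). The stricter filter gave a microglia-like median of 0.64. Subtracting free RNA gave sums of 0.56 (astrocyte-like), 0.80 (microglia-like), 0.53 (OPC-like) and 0.91 (oligodendrocyte-like) and medians of 0.66 (astrocyte-like) and 0.95 (oligodendrocyte-like), and with the lower quartile, an alternative chosen after seeing the data, the oligodendrocyte-like sum was 0.86. Nuclei with Y-linked UMIs gave sums of 0.44 (GABAergic-like), 0.71 (OPC-like) and 0.72 (oligodendrocyte-like), counts of 30, 16, 5 and 9 (GABAergic-, astrocyte-, microglia- and OPC-like), a microglia-like median of 0.48 and a complex I median there of -0.26. Nuclei with Xist UMIs gave sums of 0.31 (DG granule-like), 0.21 (GABAergic-like), 0.62 (microglia-like) and 0.51 (OPC-like), medians of 0.15, 0.48 and 0.41 (GABAergic-, microglia- and OPC-like) and counts of 15, 8 and 10 (astrocyte-, microglia- and OPC-like). A gene minimum of 200 UMIs gave medians of 0.41, 0.66 and 0.53 and counts of 11, 4 and 3 (astrocyte-, microglia- and OPC-like), with fewer genes tested, and a complex I median of -0.057 in microglia-like nuclei. Within 1 cluster of the class, also chosen after seeing the data, the sums were 0.58 (microglia-like) and 0.48 (oligodendrocyte-like), the medians 0.37 and 0.55 and the counts 8 and 33. The causes were not tested. Over all alternatives the summed ratio moved beyond its interval in 25 cases and not in 71.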
